A study of Homo sapiens with 6 samples.

Results

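Polycomb group proteins and the enzymes that write and erase DNA methylation are chromatin regulators found in nearly every cell. A set of 37 such genes was picked out of the 58735 genes of the count table by symbol, and each symbol matched exactly 1 gene. They comprise the DNA methyltransferases and their UHRF partners, the TET dioxygenases, the subunits of Polycomb repressive complexes PRC1 and PRC2, and the L3MBTL proteins with MBT domains. All 37 were expressed strongly enough in at least 1 group to be tested, among 15341 genes tested in all. RNA came from UE7T-9, a human bone marrow mesenchymal stem cell line grown in DMEM. The control group was 3 libraries of wild-type UE7T-9 cells, and the SRRM4 KO group was 3 libraries of UE7T-9 cells given the lentiviral CRISPR v2 vector against SRRM4, a neuronal splicing factor. The KO line was grown from a well seeded at 1 cell after puromycin selection, so what the knockout does and how this clone differs from the parent culture cannot be told apart. A vector-only control was not analysed here, and the study describes SRRM4 protein in this line as lowered but not lost.

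PRC2 places methyl groups on lysine 27 of histone H3 through EZH1 or EZH2, which work only together with SUZ12 and EED. PRC1 attaches ubiquitin to histone H2A through RING1 or RNF2. Its CBX subunits read the PRC2 mark, and its PCGF subunits set which form of PRC1 is built. DNMT1 and UHRF1 copy DNA methylation onto the new strand after replication, DNMT3A and DNMT3B set new methylation, and TET enzymes oxidise methylcytosine. In mesenchymal cells these regulators are known for holding developmental genes and cell cycle inhibitors silent.

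The libraries held 21496117 to 23868323 counts, so the limit that a count of 0 allows (3 counts) was 0.123 to 0.139 CPM (read counts scaled to library size, after TMM). SRRM4 had 0 counts in all 6 libraries, so the table gives no check of the knockout. The mesenchymal markers NT5E, ENG and THY1 were present in each library, and all 3 passed the test, NT5E as higher in the KO (log2 fold change 0.52) and ENG (-0.34) and THY1 (-2.43) as lower. PTPRC, PECAM1, CDH5 and EPCAM, which mark blood, endothelial and epithelial cells, had at most 3 counts in any library, whereas CD14 had 324 to 392. The myeloid marker ITGAM, named after its values were seen and too low to be tested, was counted 5, 14 and 13 times in control and 0 times in each KO library. Of the 11 such markers 4 could be tested, with log2 fold changes from -0.92 to 0.07, and 0 passed by edgeR at an adjusted p under 0.05. Of all 15341 genes tested 41.6% passed, and 7529 had an unadjusted p under 0.05. Summed without KRT18, the markers came to 22.4 to 22.6 CPM in control and 18.6 to 21.5 CPM in the KO libraries. The level of KRT18 is not reported here, so this sum does not describe that epithelial marker. Control replicate 1 stood apart, with 22403 genes counted against 20613 and 20674 in the other 2 control libraries. It was also the control library farthest from the other 2 for 23 of the 37 members.

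In SRRM4 KO cells 11 members were higher and 11 were lower at an adjusted p under 0.05, and 15 did not pass (quasi-likelihood test of edgeR). The share that passed, 59.5%, has to be read against 41.6% of all genes tested, with 20.7% higher and 20.9% lower. For genes averaging 100 counts or more, a level chosen after the data were seen, 55.9% of 34 members and 47.6% of all 11248 genes passed. With a log2 fold change beyond 1 as well, L3MBTL4 was higher and JARID2 was lower, where 5.45% and 7.14% of all genes were so called. L3MBTL4 entered the test through the KO libraries alone, so its place among the higher members is a description. The median log2 fold change was 0.01 over the members and -0.01 over all genes. The groups did not overlap for 23 members, where 51.8% of all genes did not overlap. Without control replicate 1 the test passed 13 members as higher and 12 as lower, with 44.5% of all genes passing in that fit. The higher members included DNMT1, UHRF1, EZH2, EED, the PCL proteins of PRC2 and L3MBTL4, and the lower members included DNMT3A, TET3, JARID2, CBX6 and the other 3 L3MBTL genes. As bulk RNA was measured, fewer cells with a transcript and less of it per cell cannot be told apart.

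**Figure D1:**
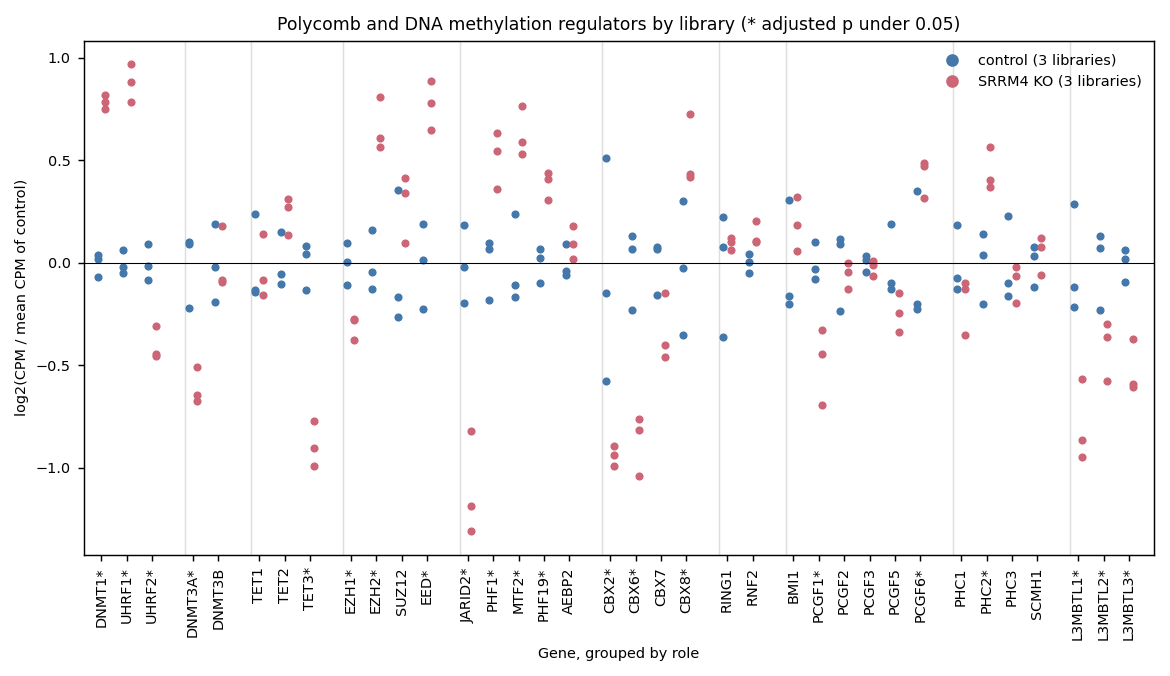
Level of 36 members in each library, as log2 of CPM over the mean CPM of control, with control libraries in blue, SRRM4 KO libraries in red and genes grouped by role. L3MBTL4 is left out because 2 control libraries had no counts. All 3 KO libraries lie above all control libraries for DNMT1, UHRF1, EZH2 and EED and below them for DNMT3A, TET3, JARID2 and CBX6, while the groups overlap for SUZ12.

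Of DNMT1 and the UHRF genes, DNMT1 and UHRF1 rose and UHRF2 fell. DNMT1 (ENSG00000130816), the methyltransferase that copies methylation at replication, lies on chromosome 19 from 10133345 to 10231286. Its level was 159, 171 and 169 CPM in control replicates 1 to 3 and 294, 287 and 280 CPM in the KO replicates. Each KO library was well above each control library, a log2 fold change of 0.79 (SE 0.076, adjusted p = 8.28e-07). Some of its exon bases also belong to S1PR2. UHRF1 (ENSG00000276043, chromosome 19, 4903080 to 4962154), which brings DNMT1 to hemimethylated sites, had 41.7, 45.0 and 42.5 CPM in control and 79.4, 84.4 and 74.3 CPM in the KO. The groups were again far apart, with a log2 fold change of 0.88 (SE 0.093, adjusted p = 2.00e-06). Its paralogue UHRF2 went the other way, with 61.3 ± 3.83 CPM in control against 46.5 ± 2.61 CPM in the KO (SD, n = 3), which is -0.40 on the log2 scale (SE 0.095, adjusted p = 0.00336). Genes around UHRF2 were lower too, with a median of -0.41 over 26 tested genes within 5 Mb on chromosome 9. Per length, the ratio of UHRF1 to UHRF2 was 1.23, 1.43 and 1.42 in control against 3.41, 3.29 and 3.18 in the KO. This ratio is formed within a library and does not depend on the scaling between libraries.

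Of the enzymes that set new methylation, DNMT3A was lower and DNMT3B did not pass. DNMT3A (ENSG00000119772, chromosome 2, 25227855 to 25342590) had 20.4, 25.5 and 25.3 CPM in control and 14.9, 15.2 and 16.7 CPM in the KO. All KO libraries lay below all control libraries, a log2 fold change of -0.61 (SE 0.13, adjusted p = 0.00165). Relative to the median of chromosome 2, which was -0.25, it was -0.36. DNMT3B averaged 11.8 ± 1.54 CPM in control and 11.8 ± 1.30 CPM in the KO (SD, n = 3), or 0.01 as log2 fold change (SE 0.15). Per length, DNMT1 supplied 79.1% of the summed RNA of the 3 methyltransferases in control and 88.4% in the KO, while DNMT3A went from 9.16% to 3.91%. The sum itself went from 21.5 ± 1.20 to 33.2 ± 0.431 CPM per kb (SD, n = 3).

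Among the TET dioxygenases, which oxidise methylcytosine as a step of its removal, TET3 fell. TET3 (ENSG00000187605, chromosome 2, 73986404 to 74108176) had 52.5, 51.0 and 45.1 CPM in control and 26.5, 29.0 and 24.9 CPM in the KO. The highest KO library was far below the lowest control library, a log2 fold change of -0.88 (SE 0.11, adjusted p = 9.36e-06). TET2 had a log2 fold change of 0.24 (SE 0.10, adjusted p = 0.0781) and TET1 of -0.03 (SE 0.16, adjusted p = 0.91). Without control replicate 1 TET2 passed, at 0.32 (adjusted p = 0.00833). TET3 was the most abundant of the 3 per length in control, with 53.3% of their sum. In the KO TET2 held 46.5%, TET3 35.6% and TET1 17.9%, and the TET3 share did not overlap between the groups.

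In the PRC2 core EZH2 and EED rose, EZH1 was slightly lower and SUZ12 did not pass. EZH2 (ENSG00000106462, chromosome 7, 148807383 to 148884321), the methyltransferase that dividing cells use most, had 22.1, 19.2 and 18.1 CPM in control and 30.2, 29.3 and 34.7 CPM in the KO. The groups did not overlap, and the log2 fold change was 0.66 (SE 0.12, adjusted p = 0.000476). EED (ENSG00000074266, chromosome 11, 86244544 to 86278813), which binds the finished mark and stimulates the enzyme, had 18.4, 13.8 and 16.3 CPM in control and 27.7, 25.3 and 29.9 CPM in the KO. Each KO library was again above each control library, a log2 fold change of 0.77 (SE 0.13, adjusted p = 0.000275). EZH1 (ENSG00000108799, chromosome 17, 42700275 to 42745049), the enzyme known from resting cells, had 33.1, 38.2 and 35.8 CPM in control and 29.4, 27.5 and 29.5 CPM in the KO. Its log2 fold change of -0.31 (SE 0.11, adjusted p = 0.0289) passed in 1 of the 6 fits that left out a library, where it ran from -0.36 to -0.26 (adjusted p from 0.0059 to 0.116). Per length the ratio of EZH2 to EZH1 was 1.03, 0.775 and 0.784 in control and 1.59, 1.65 and 1.82 in the KO. EZH2 thus made up 46.1% ± 4.04 of the summed EZH RNA per length in control and 62.7% ± 1.63 in the KO (SD, n = 3).

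SUZ12, the scaffold of PRC2, had 116, 80.9 and 75.6 CPM in control and 115, 97.2 and 121 CPM in the KO. Control replicate 1 lay within the KO range and the other 2 control libraries lay below it. The log2 fold change was 0.29 (SE 0.14, adjusted p = 0.109), and 0.50 without control replicate 1 (adjusted p = 4.84e-05). Its copy SUZ12P1 had 106 to 172 counts in control and 115 to 161 in the KO, and how reads shared by the pair were counted was not tested.

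Among the accessory subunits of PRC2, JARID2 fell, 3 rose and AEBP2 did not pass. JARID2 (ENSG00000008083, chromosome 6, 15246296 to 15522040), which together with AEBP2 marks the form called PRC2.2, had 27.4, 31.6 and 24.2 CPM in control and 11.2, 15.7 and 12.2 CPM in the KO. No KO library came near the control range, and the log2 fold change was -1.09 (SE 0.15, adjusted p = 3.61e-05). In the 6 fits that left out a library it ran from -1.25 to -0.98, and it was short of -1 without control replicate 2 and without KO replicate 1. AEBP2 was 51.1 ± 2.94 CPM in control and 54.8 ± 3.07 CPM in the KO (SD, n = 3, log2 fold change 0.10, SE 0.095). The Polycomb-like proteins PHF1, MTF2 and PHF19, which guide PRC2.1 to CpG islands, all rose. PHF1 (ENSG00000112511, chromosome 6, 33410399 to 33416453) had 48.0, 58.2 and 57.0 CPM in control and 84.5, 79.5 and 69.9 CPM in the KO, a log2 fold change of 0.52 (SE 0.10, adjusted p = 0.00098), or 0.27 relative to the 170 tested genes within 5 Mb. Its exons overlap those of CUTA on the other strand, and in libraries without strand the reads of this overlap cannot be told apart. MTF2 (ENSG00000143033, chromosome 1, 93079235 to 93139081) had 29.3, 22.1 and 23.0 CPM in control and 37.3, 35.8 and 42.2 CPM in the KO, a log2 fold change of 0.63 (SE 0.13, adjusted p = 0.000919). PHF19 went from 49.6 ± 2.86 to 64.7 ± 3.09 CPM (SD, n = 3, log2 fold change 0.38, SE 0.093, adjusted p = 0.00368). For all 3 genes the lowest KO library was above the highest control library. Their summed level went from 26.7 ± 1.29 to 37.8 ± 1.31 CPM per kb (SD, n = 3), against 4.62 and 2.17 CPM per kb for JARID2.

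The chromodomain subunits of PRC1 moved in both directions. CBX6 (ENSG00000183741, chromosome 22, 38861450 to 38872314) was the most abundant of them per length in control, with 165, 212 and 203 CPM. It had 110, 114 and 94.2 CPM in the KO, below every control library, a log2 fold change of -0.87 (SE 0.11, adjusted p = 9.41e-06), where the 122 tested genes within 5 Mb had a median of -0.29. CBX7, which represses the INK4 locus, had 19.4 ± 1.74 CPM in control and 15.5 ± 1.79 CPM in the KO (SD, n = 3). Its log2 fold change of -0.33 did not pass (SE 0.14, adjusted p = 0.0671), and genes within 5 Mb had a median of -0.29. It passed without control replicate 1 (-0.40, adjusted p = 0.0198), without KO replicate 2 (-0.43, adjusted p = 0.0461) and with upper-quartile scaling (adjusted p = 0.0467). CBX8 (ENSG00000141570) and CBX2 (ENSG00000173894) lie 4149 bases apart on chromosome 17, at 79792132 to 79801683 and 79778132 to 79787983. CBX8 had 4.98, 7.84 and 6.23 CPM in control and 8.48, 10.5 and 8.59 CPM in the KO, a log2 fold change of 0.53 (SE 0.19, adjusted p = 0.0361). CBX2 had 3.69, 7.84 and 4.97 CPM in control and 2.96, 2.87 and 2.77 CPM in the KO, a log2 fold change of -0.94 (SE 0.27, adjusted p = 0.0116). In both genes the groups were close to each other but did not overlap. CBX8 passed in 1 of the 6 fits that left out a library and did not pass in DESeq2 (adjusted p = 0.0652). CBX2 passed in 5 of the 6, and was at -0.60 without control replicate 2 (adjusted p = 0.106). The 160 tested genes within 5 Mb of the pair had a median of 0.69, from which CBX2 differed by -1.62 and CBX8 by -0.15 on the log2 scale. Per length the ratio of CBX8 to CBX2 was 1.84, 1.37 and 1.71 in control and 3.91, 4.98 and 4.23 in the KO.

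**Figure D2:**
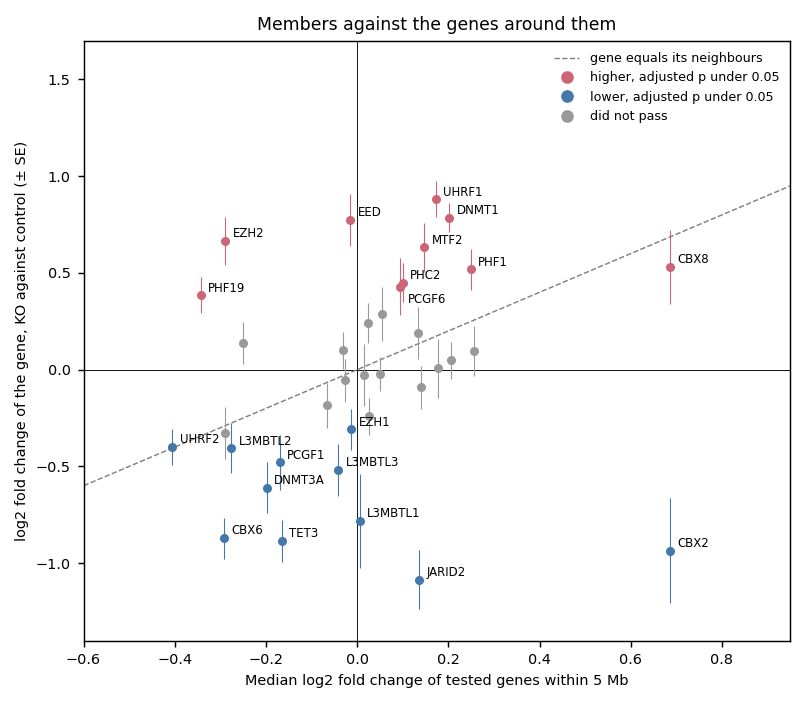
Log2 fold change of 36 members (points, with SE) against the median log2 fold change of the tested genes within 5 Mb, with members that passed as higher in red, as lower in blue and the others in grey, and a dashed line where both are equal. UHRF2 lies on the line, EZH2 and PHF19 rose among genes whose median was below 0, and CBX2 fell among genes whose median was 0.69.

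The catalytic and shared subunits of PRC1 did not pass. RING1 and RNF2, the ubiquitin ligases, had log2 fold changes of 0.10 (SE 0.13) and 0.14 (SE 0.11). The ratio of RING1 to RNF2 ran from 3.01 to 4.67 in control and from 3.63 to 4.06 in the KO, and these ranges overlap. Among the PCGF subunits PCGF1, of the BCOR complex, was lower (log2 fold change -0.48, SE 0.14, adjusted p = 0.0141) and PCGF6, of the form with E2F6 and MGA, was higher (0.43, SE 0.15, adjusted p = 0.0306). PCGF6 had 27.4, 18.4 and 18.7 CPM in control and 26.8, 30.1 and 29.8 CPM in the KO, so control replicate 1 lay inside the KO range. PCGF1 passed in 4 and PCGF6 in 2 of the 6 fits that left out a library. Relative to its chromosome PCGF1 was at -0.23 and relative to its neighbours at -0.31. BMI1, the PCGF protein known for repressing INK4, had a log2 fold change of 0.19 (SE 0.14, adjusted p = 0.286), which was 0.37 without control replicate 1 (adjusted p = 0.00622). PCGF2, PCGF3 and PCGF5 had log2 fold changes of -0.06, -0.02 and -0.24 and did not pass. PCGF5 was close to the threshold (adjusted p = 0.0593), and its groups did not overlap. It passed in 2 of the 6 fits that left out a library, and with upper-quartile scaling (adjusted p = 0.0334). Without the low-count filter (0.0418), with at least 10 counts in every library (0.0393) and with protein-coding genes only (0.0396) it passed too. It did not pass in DESeq2 (adjusted p = 0.063), and was at -0.14 without control replicate 1 (adjusted p = 0.127). PCGF2 overlaps CISD3 and PHC1 overlaps M6PR, each on the other strand.

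PHC2, a polyhomeotic subunit that joins PRC1 complexes into larger assemblies, rose from 95.1 ± 11.2 to 130 ± 9.45 CPM (SD, n = 3). Its log2 fold change was 0.45 (SE 0.099, adjusted p = 0.00192), and no KO library overlapped the control range. PHC1 (-0.19, SE 0.12), PHC3 (-0.09, SE 0.11) and SCMH1 (0.05, SE 0.097) did not pass. PHC2 held 65.5% ± 3.91 of the summed polyhomeotic RNA per length in control and 74.3% ± 1.52 in the KO (SD, n = 3).

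**Figure D3:**
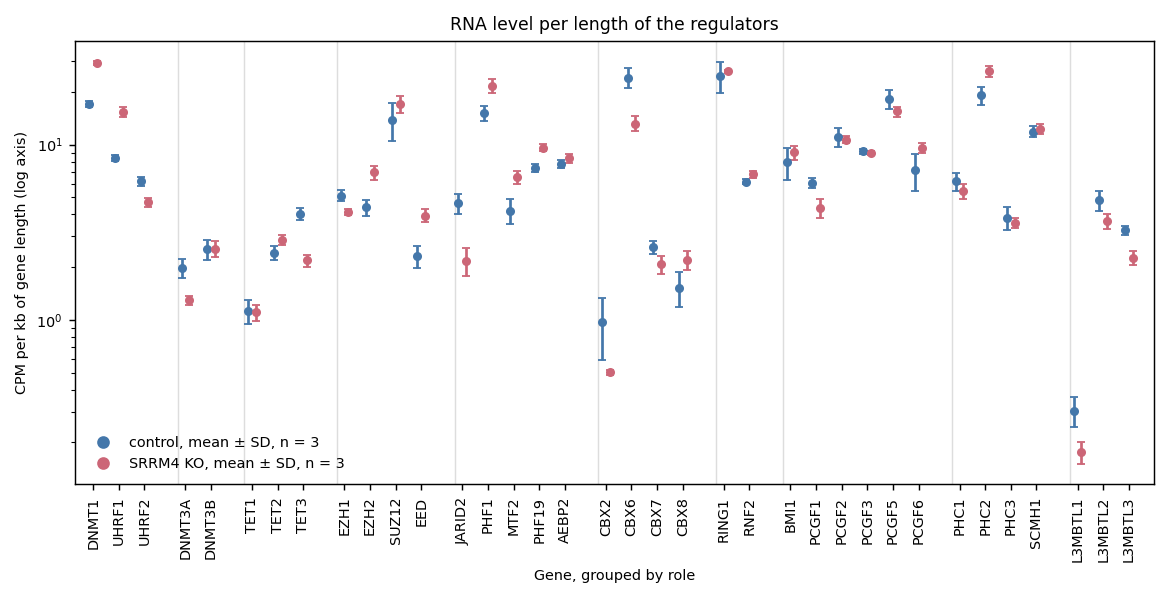
Level of 36 members as CPM per kb of gene length on a log axis, mean and SD over 3 libraries, control in blue and SRRM4 KO in red, grouped by role, without L3MBTL4. RING1 and CBX6 have the highest means in control, at 24.6 and 24.1 CPM per kb. DNMT1 has the highest mean in the KO at 29.3 CPM per kb, and L3MBTL1 is the lowest shown in both groups.

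By level per length, RING1 (24.6 ± 4.96 CPM per kb, SD, n = 3) and CBX6 (24.1 ± 3.16) had the highest means in control and did not differ beyond their spread. PHC2 (19.1 ± 2.24), PCGF5 (18.3 ± 2.26) and DNMT1 (17.0 ± 0.658) came next by mean. The spreads of these genes overlap in part, so their order in control is not settled. In the KO DNMT1 came first (29.3 ± 0.722), with RING1 (26.3 ± 0.533) and PHC2 (26.1 ± 1.90) next and level with each other within their spread. CBX6, at 13.2 CPM per kb, was no longer among the leading genes. The least abundant members in control were L3MBTL4, L3MBTL1 (0.304), CBX2 (0.967) and TET1 (1.12 CPM per kb).

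The MBT domain proteins, which bind methylated histone tails and compact chromatin, comprised 3 genes that fell and L3MBTL4, which was high only in the KO libraries. L3MBTL4 (ENSG00000154655, chromosome 18, 5954706 to 6415237, minus strand) had 0, 0 and 3 counts in control and 103, 123 and 98 counts in the KO. It was thus at or under the limit of detection in control and 4.71 ± 0.308 CPM in the KO (SD, n = 3). The ratio of KO to control was 103 (95% exact interval 35.0 to 503 for counting error, on 324 and 3 counts). As all 3 control counts were in replicate 3, the fitted log2 fold change of 6.52, which depends on the prior count, was 9.72 without that library and 6.0 without either of the other control libraries. Under a filter that asks for 10 counts in each library it could not be tested. Its neighbours did not share the rise, since the 33 tested genes within 5 Mb had a median log2 fold change of -0.40. Of the 6 tested within 1 Mb, looked at after the data were seen, the log2 fold changes ran from -0.57 to 0.16. L3MBTL1 (ENSG00000185513, chromosome 20, 43489442 to 43550950) had 4.06, 5.75 and 4.35 CPM in control and 3.19, 2.59 and 2.45 CPM in the KO, a log2 fold change of -0.78 (SE 0.24, adjusted p = 0.0181). L3MBTL3 (ENSG00000198945, chromosome 6, 130013699 to 130141451) had 17.3, 15.5 and 16.8 CPM in control and 11.0, 10.9 and 12.8 CPM in the KO, a log2 fold change of -0.52 (SE 0.14, adjusted p = 0.00646). L3MBTL2, a subunit of the PCGF6 complex, went from 31.2 ± 4.05 to 23.5 ± 2.35 CPM (SD, n = 3, log2 fold change -0.41, SE 0.13, adjusted p = 0.0187), where the 130 tested genes within 5 Mb had a median of -0.28. The groups did not overlap in any of these 3 genes. L3MBTL1 and L3MBTL2 each passed in 3 of the 6 fits that left out a library, and L3MBTL3 in all 6.

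Since DNMT1, UHRF1 and EZH2 are known as genes that E2F factors switch on with the cell cycle, the 250 bases upstream of the start sites were searched for the E2F motif in its forms TTTCCCGC, TTTCGCGC, TTTGCCGC and TTTGGCGC, on both strands. RefSeq windows (GRCh38.p14) were at hand for 35 of the 37 members, those of CBX2 and CBX8 not being among them. A match stood in 6 of these 35 genes (17.1%) and in 3.40% of all 27305 genes with a window. The 6 were UHRF1 and PHF19, which were higher, EZH1 and L3MBTL1, which were lower, and SUZ12 and AEBP2, which did not pass. A gene was taken as matched if any of its windows held the motif. These shares were not matched for expression, CpG content or number of start sites, so no enrichment is drawn from them. The windows below are of the 4 higher genes UHRF1, PHF19, DNMT1 and EZH2, of JARID2 as the largest fall and of L3MBTL4 as the largest rise. They run 5′ to 3′ on the gene's strand up to the base before the start site, and capitals mark an E2F match. UHRF1 is chr19:4909251-4909500 (plus), PHF19 chr9:120877189-120877438 (minus), DNMT1 chr19:10194954-10195203 (minus), EZH2 chr7:148884292-148884541 (minus), JARID2 chr6:15245819-15246068 (plus) and L3MBTL4 chr18:6415260-6415509 (minus).
UHRF1: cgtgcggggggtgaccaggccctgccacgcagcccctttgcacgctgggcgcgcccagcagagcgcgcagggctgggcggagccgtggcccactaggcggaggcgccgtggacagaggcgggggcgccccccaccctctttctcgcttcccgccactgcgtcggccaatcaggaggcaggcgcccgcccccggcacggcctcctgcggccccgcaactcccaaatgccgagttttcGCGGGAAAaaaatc
PHF19: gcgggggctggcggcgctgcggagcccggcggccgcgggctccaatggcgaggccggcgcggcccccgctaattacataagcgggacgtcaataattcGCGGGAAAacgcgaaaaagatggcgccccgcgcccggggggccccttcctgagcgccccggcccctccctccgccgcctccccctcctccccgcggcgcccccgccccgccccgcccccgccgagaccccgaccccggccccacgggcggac
DNMT1: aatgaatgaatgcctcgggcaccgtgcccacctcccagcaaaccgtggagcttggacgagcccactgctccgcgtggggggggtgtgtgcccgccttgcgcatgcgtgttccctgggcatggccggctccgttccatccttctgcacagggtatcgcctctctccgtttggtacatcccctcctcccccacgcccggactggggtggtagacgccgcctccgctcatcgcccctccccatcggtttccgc
EZH2: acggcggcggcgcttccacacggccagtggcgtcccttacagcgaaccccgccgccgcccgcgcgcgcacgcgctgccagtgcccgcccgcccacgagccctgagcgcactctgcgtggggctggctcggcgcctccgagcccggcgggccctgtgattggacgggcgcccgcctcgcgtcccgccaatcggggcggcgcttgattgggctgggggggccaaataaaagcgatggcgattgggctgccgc
JARID2: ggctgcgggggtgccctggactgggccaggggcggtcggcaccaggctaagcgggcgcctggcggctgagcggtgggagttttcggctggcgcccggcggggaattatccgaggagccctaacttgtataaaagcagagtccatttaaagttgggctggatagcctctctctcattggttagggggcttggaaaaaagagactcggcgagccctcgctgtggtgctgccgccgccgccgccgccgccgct
L3MBTL4: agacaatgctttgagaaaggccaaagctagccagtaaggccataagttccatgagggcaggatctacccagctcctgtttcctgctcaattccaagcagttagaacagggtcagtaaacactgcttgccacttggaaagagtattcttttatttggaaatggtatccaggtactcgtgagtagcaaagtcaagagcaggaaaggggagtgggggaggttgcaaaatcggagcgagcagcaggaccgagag
In UHRF1 the match begins 14 bases before the start site and in PHF19 152 bases before it, and DNMT1, EZH2, JARID2 and L3MBTL4 have none in the window shown. The windows hold 28, 39, 21, 38, 22 and 4 CpG dinucleotides in the order printed, where the median over all 35116 windows was 11. L3MBTL4, the member with almost no counts in control, thus has the window with the fewest CpG of the 6. Where a gene has several RefSeq start sites, the window with a match was shown, or else that nearest to the gene's start in the count table.

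RNA of genes of DNA replication and mitosis was higher in the KO. The study's MTS assay of proliferation found no significant difference between control and KO cells, and division rate was not measured here. Of 39 tested S phase genes, 38 were higher and 0 lower in the KO, where 20.7% of all genes were higher, with a median log2 fold change of 0.85, and of 49 genes of the G2 and M phases all 49 were higher, with a median of 1.21. FEN1 (flap endonuclease, log2 fold change 1.54) and CHAF1B (a histone chaperone at the replication fork, 1.52) are examples of the first list and AURKA (1.73) and BIRC5 (1.97), which act in mitosis, of the second. Summed over the list, S phase genes came to 1870 to 1972 CPM in control and 3367 to 3488 CPM in the KO libraries, and G2 and M phase genes to 2767 to 3098 and 5922 to 6030 CPM. Of the 11 higher members, 5 (DNMT1, UHRF1, EED, EZH2 and MTF2) had log2 fold changes within the quartiles of the S phase list (0.61 to 1.06), 5 were below them and L3MBTL4 was above. The part of cell cycle genes in the rise of these members was not tested.

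Other subunits and partners of the Polycomb complexes moved in both directions, with 10 of 22 tested genes higher and 2 lower, a share of 54.5% that passed against 41.6% of all genes, and a median log2 fold change of 0.23. SCML2, an MBT and SAM domain protein that binds PRC1, had 0.91 (SE 0.14), LCORL, whose locus encodes a PRC2.1 subunit, 0.70 (SE 0.14), SCML1 0.69 (SE 0.10) and DCAF7, of the PCGF3 and PCGF5 complexes, 0.57 (SE 0.076). The tested genes within 5 Mb had a median of 0.57 around DCAF7, 0.11 around SCML2, 0.12 around SCML1 and -0.08 around LCORL. YAF2, which replaces RYBP in PRC1, was lower (-0.48, SE 0.16), as was FBRS (-0.37, SE 0.12), whose neighbours had a median of -0.29, and in both genes the groups overlapped. The genes that oppose Polycomb, namely the BAP1 deubiquitinase complex and the demethylases of histone H3 lysine 27, had 4 higher and 6 lower of 11 tested (90.9% passed, median log2 fold change -0.28). FOXK2 (0.90, SE 0.095), whose 99 tested neighbours within 5 Mb on chromosome 17 had a median of 0.65, and ASXL1 (0.63, SE 0.082) were higher, with HCFC1 (0.31) and KDM6A (0.36) on the X chromosome, where genes within 5 Mb had medians of 0.33 and 0.40. The demethylase KDM6B (-0.55, SE 0.12), FOXK1 (-0.53, SE 0.094), MBD5 (-0.45, SE 0.12) and OGT (-0.44, SE 0.093) were lower, and BAP1 did not pass (-0.04, SE 0.094). The neighbours of FOXK1 and MBD5 had medians of -0.37 and -0.36. Of 26 tested DNA methylation genes that are not members, 8 were higher and 2 lower (38.5% passed). HELLS (1.01, SE 0.11) and CDCA7 (0.61, SE 0.13), which form a remodelling complex that opens nucleosomes for DNMT1, were higher, as was TRIM28 (0.70, SE 0.076), a corepressor. IDH1, which makes the 2-oxoglutarate that TET enzymes need, was lower (-0.70, SE 0.091), as was D2HGDH (-0.76, SE 0.18), and their neighbours had medians of -0.39 and -0.32.

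Genes known to be under the control of these regulators are read against the 20.7% of all genes that were higher and 20.9% that were lower. Of 55 developmental genes and INK4 genes known as Polycomb targets, 34 could be tested, with 7 higher and 12 lower (median log2 fold change -0.13, 55.9% passed against 41.6% of all genes), and 12 had 0 counts in all libraries. NKX3-2 (2.27, SE 0.26), TFAP2A (2.11, SE 0.11), PAX6 (1.73, SE 0.31) and TBX2 (1.12, SE 0.14), all transcription factors, were higher. PAX9 (-1.26, SE 0.16), GSC (-1.17, SE 0.19), DLX2 (-1.06, SE 0.27) and GATA6 (-0.99, SE 0.17), likewise transcription factors, were lower. The neighbours of TBX2 and GATA6 had medians of 0.59 and -0.38. GATA3, named after its values were seen and not tested, was counted 0, 1 and 0 times in control libraries against 11, 18 and 1 times in KO libraries. Of the INK4 genes, named after their values were seen, CDKN2B was lower (-0.75, adjusted p = 4.81e-06) and CDKN2A did not pass (-0.13, adjusted p = 0.378). Of 35 germline genes that DNA methylation keeps silent in somatic cells, 17 had 0 counts in all libraries and the other 17 untested genes had at most 22 counts in any library. The tested gene was MAGEC2. It was counted 17, 10 and 17 times in control libraries against 0, 3 and 1 times in KO libraries, a ratio of 0.0868 (95% exact interval 0.0227 to 0.238 for counting error). It too entered the test through 1 group alone, the control, so its counts are a description. Among imprinted genes, which are marked by DNA methylation on the copy of 1 parent, 3 were higher and 7 lower of 17 tested (58.8% passed against 41.6% of all genes, median log2 fold change -0.16). PHLDA2 (0.99, SE 0.11), INPP5F (0.47, SE 0.11) and PLAGL1 (0.41, SE 0.098) were higher, and DLX5 (-1.28, SE 0.22), SGCE (-0.82, SE 0.09), MEST (-0.74, SE 0.094) and PEG10 (-0.62, SE 0.083) were lower. These 4 lower genes lie on chromosome 7, whose tested genes had a median of -0.25. CDKN1C, an inhibitor of the cell cycle named after its values were seen, was counted 51, 58 and 91 times in control libraries against 6, 1 and 1 times in KO libraries. It entered the test through the control libraries alone, so these counts are a description.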

How the data were processed

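Total RNA was taken with the RNeasy Mini Kit and sequenced as non-stranded mRNA-seq (NEBNext Ultra library kit, NovaSeq) from 3 control and 3 SRRM4 KO samples, grouped by their titles. The authors deposited raw read counts per gene for 58735 genes, without normalization. HISAT2 2.0.5, featureCounts 1.5.0-p3 and DESeq2 are named in the submitters' processing notes. The genome build is not given in the sources used here, and all 37 members had the start and end of GENCODE 29 (GRCh38). How multimapping reads were treated is not stated. The deposited table also gives a gene length, another kind of value than the counts, used for CPM per kb. It is a single value per gene and need not be the length of the transcripts expressed here. Shares, ratios and ranks between genes therefore depend on it.

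Members and gene lists were chosen with earlier results of these data known. Counts were tested with edgeR 4.0.16 (R 4.3.3) after TMM scaling and filterByExpr by the quasi-likelihood test, all 6 libraries together, with p-values adjusted over the 15341 genes by Benjamini-Hochberg. SE is the log2 fold change over the square root of F. Separate cultures are not stated, so the p-values measure the spread between these samples, which may be technical. For a single ratio an exact permutation test of 3 against 3 libraries cannot go below p = 0.10. Full values are given for members that passed (adjusted p under 0.05) and moved by over 0.5 on the log2 scale, plus EZH1, EZH2, DNMT1 and UHRF1, and for up to 4 genes per direction of each other list, those of largest change that passed and averaged 50 counts or more. CBX7, SUZ12, PCGF6, BAP1, CDKN2A, CDKN2B, CDKN1C, GATA3, ITGAM and MAGEC2 were added after their values were seen. Alternatives were DESeq2 size factors, upper-quartile scaling, other filters, a replicate block, DESeq2 1.42.0, protein-coding genes only, centring by chromosome and each library left out. EZHIP was not matched by symbol, and IGF2, held by 2 rows, was left out. Some genes of the lists are not reported here. The fit was tested on simulated data. Intervals and limits cover counting error only.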

Additional observations from a re-analysis of the deposited data

How the results depend on the processing

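Of the 22 members that passed, 15 (9 higher, 6 lower) passed in each fit that left out a library and under each other scaling, filter and test that gave a value, L3MBTL4 among them, which entered through the KO libraries alone. Over the fits that left out a library, 9 to 13 members were higher and 8 to 12 lower (33.7% to 44.5% of all genes passed), the 2-fold calls numbered 0 to 2 lower and 1 higher throughout, and the median log2 fold change ran from -0.036 to 0.069. The lower 2-fold calls were 0 without control replicate 2 or KO replicate 1 (JARID2 under 2-fold) and 2 without control replicate 1 or 3 (CBX2 added). With at least 10 counts in every library L3MBTL4 could not be tested, so 0 members were called 2-fold higher. DESeq2 passed 10 higher and 11 lower members, losing CBX8, and upper-quartile scaling 11 and 13.

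No pairing of the libraries by replicate number was seen, though correlations over so few libraries cannot show how the samples were handled. Deviations of same-numbered libraries correlated at -0.0862, 0.109 and -0.102 over 15341 genes, and not every library correlated best with its own number. With the number as a block 12 members were higher and 10 lower, with EZH1 lost (adjusted p = 0.0628) and SUZ12 gained (0.0395), and over all genes 3070 and 3055 passed.

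Centring by chromosome or by neighbours gives values without a test, so counts of calls have no such version. By chromosome no passed member changed sign, but 5 of 22 became smaller by over 1.5 times, namely UHRF2 (-0.16), DNMT3A (-0.36), CBX8 (0.33), PCGF1 (-0.23) and L3MBTL2 (-0.15), and EZH1 (-0.52) and PHF19 (0.63) became larger by over 1.5 times. By neighbours, added after the data were seen, 6 did so, CBX8 (-0.15) and UHRF2 (0.0054) with a change of sign, and PHF1 (0.27), CBX6 (-0.58), PCGF1 (-0.31) and L3MBTL2 (-0.13), while PHF19 (0.73) and CBX2 (-1.62) became larger. The cause was not tested. Depth limits L3MBTL4, L3MBTL1, CBX2 and CBX8, which had under 11 CPM in each library.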
